A study of Mus musculus with 6 samples.

Results

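Myokines are proteins that muscle fibers release and that act on the muscle itself or on other organs. The genes described here were 10 such factors and their best known antagonists, listed by gene symbol with earlier results of these data known: Mstn, Fst, Fstl1, Gdf15, Fgf21, Vegfa, Fndc5, Il15, Bdnf and Metrnl. All 10 were among the 24532 genes of the deposited table, and 8 of the 10 had enough counts to be tested, as had 13801 genes of the whole table. Myostatin, the product of Mstn, is a ligand of the TGF-β superfamily that restrains muscle growth. It binds activin type II receptors, which pair with a type I receptor and pass the signal to Smad2 and Smad3. Follistatin, the product of Fst, holds the ligand away from these receptors. The other factors are known from work on exercise, vessel growth, metabolism and stress.

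RNA came from gastrocnemius (GAS) muscle, a mixed calf muscle of mostly fast fibers, of C57BL/6 mice aged 20 weeks that the methods describe as males. The 3 WT libraries were from Sirt6 flox/flox mice without Cre, and the 3 Sirt6 KO libraries from Myl1-Cre; Sirt6 flox/flox mice, so that both groups carried the floxed alleles and the presence of Cre cannot be told apart from the deletion. Myl1-Cre is driven by the promoter of a myosin light chain and is active mainly in fast, type II fibers, and the RNA was from whole muscle, which also holds vessel, nerve, connective tissue and satellite cells. In such bulk samples, fewer cells of a type and less RNA per cell cannot be told apart. Which floxed Sirt6 line was used is given differently in the methods and in the reporting summary. Levels are TMM-normalized CPM, that is, counts brought to a shared library size, and fold changes are given on the log2 scale as Sirt6 KO minus WT with their standard error (SE). The test was edgeR's quasi-likelihood test, with p-values adjusted by the Benjamini-Hochberg method over all genes tested. A gene is called changed at an adjusted p under 0.05. The p-values set the difference between groups against the spread among the 3 libraries within each group, as the model estimates it.

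Sirt6 itself was measured at 2.77, 2.23 and 2.88 CPM in the WT libraries 1, 2 and 3, and at 7.81, 7.44 and 6.68 CPM in those labelled Sirt6 KO 1, 2 and 3. The RNA counted for the targeted gene was therefore higher where the label says Sirt6 KO, against that label (log2 fold change 1.48, SE 0.17, adjusted p = 0.0113 in edgeR), and each direction below is that of the library labels. These counts are RNA over the whole gene, whereas the study reported loss of Sirt6 protein in skeletal muscle by Western blot. The libraries held between 44845763 and 63016899 counts, and 1 count was worth between 0.0165 and 0.0212 CPM. The libraries also differed in a way that the genotype labels do not give. The summed level of 8 slow fiber markers (Myh7, Myh2, Tnnt1, Tnni1, Tnnc1, Myl2, Myl3 and Atp2a2) was 7302, 8166 and 1389 CPM in WT 1, 2 and 3 and 1672, 4793 and 2071 CPM in Sirt6 KO 1, 2 and 3. Hbb-bt, a beta-globin gene, had 2766, 2457 and 1908 counts in WT 1, WT 2 and Sirt6 KO 2 and 0 counts in WT 3, Sirt6 KO 1 and Sirt6 KO 3. The 3 libraries with the highest slow fiber sum were thus the 3 with Hbb-bt counts, and results that rest on this split are given with and without it. Hbb-bs, another beta-globin gene, had 6600, 5890 and 1321 counts in WT 1, 2 and 3. In Sirt6 KO 1, 2 and 3 it had 3039, 4109 and 2126 counts. A 0 in Hbb-bt was therefore not an absence of beta-globin RNA, and what the split stands for was not tested. The 8 myofiber markers, among them Acta1, Ckm and Myh4, summed to between 162800 and 243900 CPM in WT and between 232100 and 262200 CPM in Sirt6 KO, and none of them was at 0 in any library.

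Vegfa was the only member called changed, and it was lower in the libraries labelled Sirt6 KO. Of the 8 tested members, 1 was called lower and 0 were called higher (edgeR, adjusted p), against 8.39% of all 13801 tested genes called lower, 7.85% called higher and 16.2% called in either direction. At an unadjusted p under 0.05 edgeR gave 4 members, Vegfa, Il15, Fstl1 and Bdnf, all of them lower, against 18.1% of all tested genes lower at that p. In 3 members, Vegfa, Fstl1 and Bdnf, every Sirt6 KO library lay below every WT library in CPM. The same was true of 19.6% of all tested genes, and 40.0% of them had groups without overlap in one direction or the other. The median log2 fold change over the 8 tested members was -0.82, beside -0.02 over all tested genes. Metrnl was the only tested member with a log2 fold change above 0, and it lay below 0 with a GC trend removed and without WT 3 or Sirt6 KO 2.

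**Figure D1:**
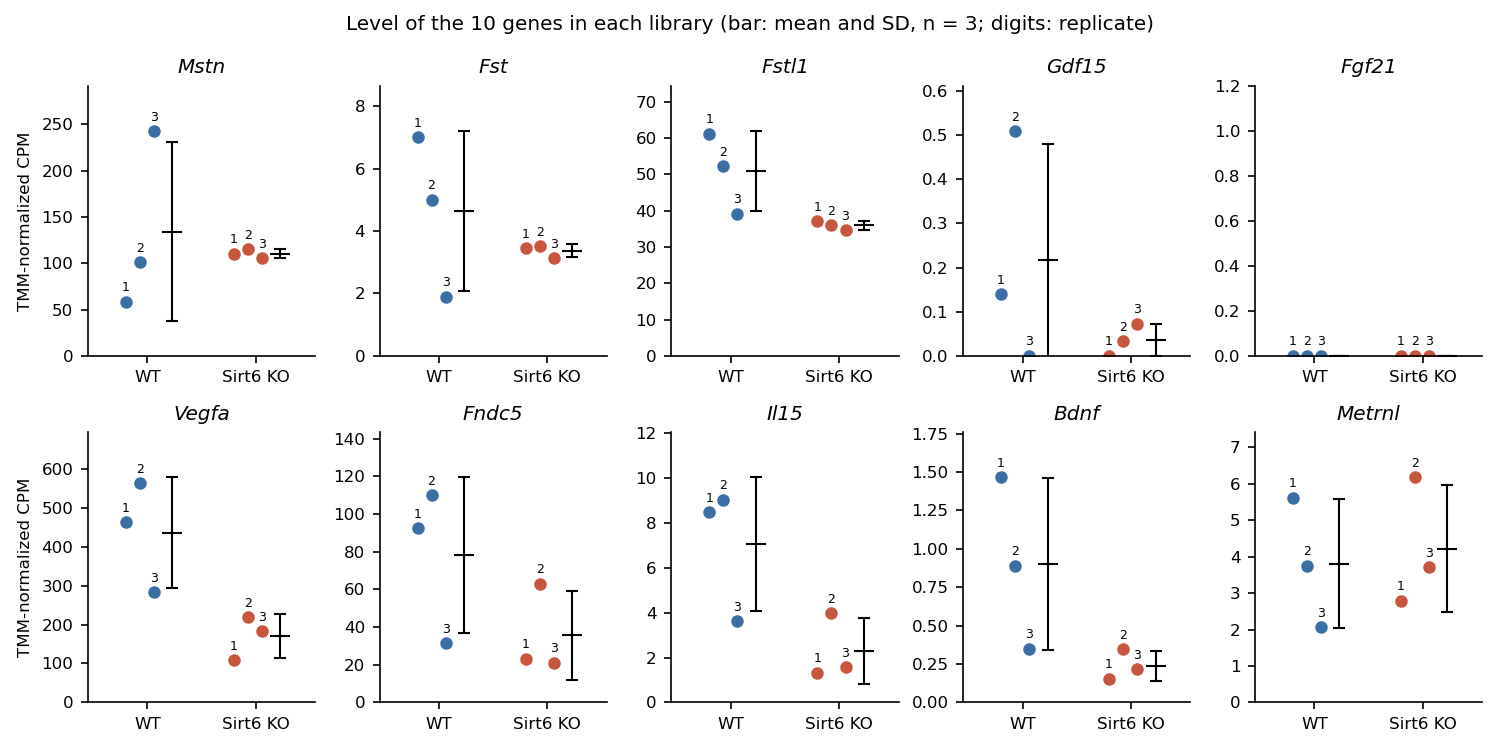
Levels of the 10 myokine genes in TMM-normalized CPM (y axis, from 0) in the 3 WT libraries (blue) and the 3 libraries labelled Sirt6 KO (red), numbered by replicate, with the mean and SD beside the points. In Vegfa, Fstl1 and Bdnf all red points lie below all blue points, Mstn has its highest point of 243 CPM in WT 3, and Fgf21 is at 0 throughout.

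Per unit of gene length, in the deposited TPM values, Vegfa was at the top of the members in both groups, with 297 ± 115 TPM in WT and 103 ± 31.9 TPM in Sirt6 KO (SD, n = 3). Mstn followed at 103 ± 62.9 TPM in WT and 82.6 ± 4.52 TPM in Sirt6 KO (SD, n = 3). Next came Fndc5, with 64.2 ± 36.9 and 26.0 ± 16.8 TPM, Fstl1, with 31.4 ± 9.93 and 20.1 ± 1.32 TPM, and Il15, with 12.5 ± 6.06 and 3.58 ± 2.25 TPM. Fst and Metrnl lay at 4.03 and 3.49 TPM in WT and changed places in Sirt6 KO, at 2.53 and 3.43 TPM, with overlapping ranges in both groups. Bdnf, at 0.503 and 0.115 TPM, and Gdf15, at 0.310 and 0.0404 TPM, were near the bottom, above Fgf21 at 0. In WT the ranges of neighbours in this order were apart only between Fstl1 and Il15 and between Metrnl and Bdnf. In Sirt6 KO they were apart between Mstn and Fndc5, between Fstl1 and Il15 and between Fst and Bdnf.

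Mstn (NCBI gene 17700) lies on chromosome 1 from 53061640 to 53068079 (GRCm38). Its level was 58.4, 101 and 243 CPM in the WT libraries and 111, 115 and 106 CPM in the libraries labelled Sirt6 KO. WT 3 was the highest and WT 1 the lowest of the 6 libraries, so that all Sirt6 KO libraries fell inside the WT range. The SD was 96.5 CPM in WT and 4.74 CPM in Sirt6 KO (n = 3), and the log2 fold change of -0.28 (SE 0.45, adjusted p = 0.690 in edgeR) was smaller than its error. Its direction was not stable: without WT 3 the log2 fold change was 0.47 (adjusted p = 0.154 in edgeR), and it was also above 0 in limma on FPKM and with a GC trend removed. WT 3 was also the library with the lowest slow fiber sum, whereas Sirt6 KO 1 and 3, with similarly low sums, held less Mstn than WT 3. The 250 bases before the RefSeq start of Mstn are shown because they hold the only searched motif found there, TGACG in capitals, a partial cAMP response element that begins 58 bases before the start.

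Mstn, GRCm38.p6, chr1:53061390-53061639, plus strand: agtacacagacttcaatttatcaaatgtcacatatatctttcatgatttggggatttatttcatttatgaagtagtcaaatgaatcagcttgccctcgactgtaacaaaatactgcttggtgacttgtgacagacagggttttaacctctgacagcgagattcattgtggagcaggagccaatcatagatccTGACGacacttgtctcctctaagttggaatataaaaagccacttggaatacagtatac

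Fst (NCBI gene 14313), on chromosome 13 from 114452262 to 114458989, was measured at 6.997, 5.01 and 1.90 CPM in WT and at 3.45, 3.51 and 3.12 CPM in Sirt6 KO. As for Mstn, WT 3 stood at one end of the WT range, here the low one, and the Sirt6 KO libraries lay inside that range. The log2 fold change was -0.46 (SE 0.42, adjusted p = 0.461 in edgeR), and without WT 3 it was -0.83 and was called (adjusted p = 0.0213 in edgeR). Fstl1 (NCBI gene 14314), on chromosome 16 from 37777055 to 37836516, encodes a secreted glycoprotein related to follistatin by sequence. Its level was 61.2, 52.2 and 39.1 CPM in WT and 37.2, 36.0 and 34.6 CPM in Sirt6 KO. The groups did not overlap in CPM, but the gap between WT 3 and Sirt6 KO 1 was narrow, and in deposited TPM the ranges overlapped. Fstl1 was 70.6% of its WT level (log2 fold change -0.50, SE 0.16, unadjusted p = 0.0167, adjusted p = 0.0751 in edgeR) and was not called. Fstl1 is also made by fibroblasts, and the 7 fibroblast markers, of which none was called, summed to between 822 and 1279 CPM in WT and between 1208 and 1357 CPM in Sirt6 KO, with none at 0. Most of this sum was Gsn, and the markers were mixed, with 3 of the 7 at a log2 fold change below 0. The part of these markers in the result was not tested. Fst and Fstl1 each overlap a long noncoding RNA gene in RefSeq, Gm41074 and Gm41452, and whether the counting used the strand is not given in the sources used here, so shared reads cannot be told apart.

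The myostatin pathway was followed over 5 lists of ligands, receptors, extracellular binders, processing enzymes and intracellular mediators, Mstn and Fst included, of which 34 of 35 genes were tested. Of these, 1 was called lower and 2 were called higher, beside 8.39% lower and 7.85% higher among all tested genes, and the median log2 fold change was -0.10. None of the 8 ligands was called by edgeR, although 3 had an unadjusted p under 0.05. Gdf11, the closest relative of Mstn, was at 6.70, 6.19 and 12.0 CPM in WT and at 32.9, 12.8 and 10.2 CPM in Sirt6 KO, with the excess mostly in Sirt6 KO 1 (log2 fold change 1.17, SE 0.47, adjusted p = 0.124 in edgeR). The activin subunit genes Inhba and Inhbb had log2 fold changes of -1.67 (adjusted p = 0.125) and -1.17 (adjusted p = 0.0730), and the inhibin subunit gene Inha had 0.65 (adjusted p = 0.152), none of them called by edgeR.

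Among the 7 receptors, Acvr1b was called higher and 0 were called lower. Acvr1b encodes ALK4, a type I receptor for activins and myostatin, and was measured at 24.8, 31.9 and 32.0 CPM in WT and at 57.8, 48.1 and 56.7 CPM in Sirt6 KO. Every Sirt6 KO library lay above every WT library (log2 fold change 0.87, SE 0.14, adjusted p = 0.0143 in edgeR). It was called with 4 of the 6 libraries left out in turn, with a highest adjusted p of 0.0736 in edgeR. The myostatin type II receptors Acvr2a and Acvr2b had log2 fold changes of 0.36 (adjusted p = 0.355) and 0.37 (adjusted p = 0.186) in edgeR, and Tgfbr1, the other type I receptor used by myostatin, had -0.09 (adjusted p = 0.692).

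Among the 7 binders and inhibitors, Ltbp3 was called higher and 0 were called lower. Ltbp3, a matrix protein that binds latent TGF-β and latent myostatin, was at 48.6, 51.3 and 56.5 CPM in WT and at 104, 78.3 and 85.5 CPM in Sirt6 KO. The groups did not overlap (log2 fold change 0.78, SE 0.14, adjusted p = 0.0167 in edgeR), and the call was kept in 2 of the 6 fits that left out a library. It was lost when a trend with GC content was removed (log2 fold change 0.54, adjusted p = 0.0570 in edgeR). Fstl3, a follistatin relative, and Wfikkn2, which binds the myostatin propeptide, had log2 fold changes of -0.55 (adjusted p = 0.369) and 0.21 (adjusted p = 0.267) in edgeR. Dcn, also of this list, had -0.68 (SE 0.25, unadjusted p = 0.0274, adjusted p = 0.0995 in edgeR) and was not called. None of the 4 tested processing enzymes was called by edgeR, and 1 of them, Furin, the convertase that cuts the propeptide, had an unadjusted p under 0.05, with a log2 fold change of 0.25 (SE 0.11, adjusted p = 0.140).

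In the intracellular list of 8 genes, Smurf2 was called lower and 0 were called higher. Smurf2 encodes a ubiquitin ligase that targets Smad proteins and TGF-β receptors for degradation. It was measured at 48.7, 36.4 and 43.6 CPM in WT and at 31.9, 26.9 and 29.3 CPM in Sirt6 KO, without overlap (log2 fold change -0.55, SE 0.13, adjusted p = 0.0363 in edgeR). The call was lost with the GC trend removed (log2 fold change -0.46, adjusted p = 0.0730 in edgeR), and with a library left out it was kept in 1 of 6 fits, with log2 fold changes from -0.65 to -0.44. The signal carriers Smad2, Smad3 and Smad4 had log2 fold changes of -0.19, 0.23 and -0.15, and the inhibitory Smad7 had -0.26, with adjusted p-values of 0.264, 0.523, 0.298 and 0.693 in edgeR. Skil, whose product SnoN is a repressor of Smad targets, had -0.97 (SE 0.30, adjusted p = 0.0672 in edgeR).

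**Figure D2:**
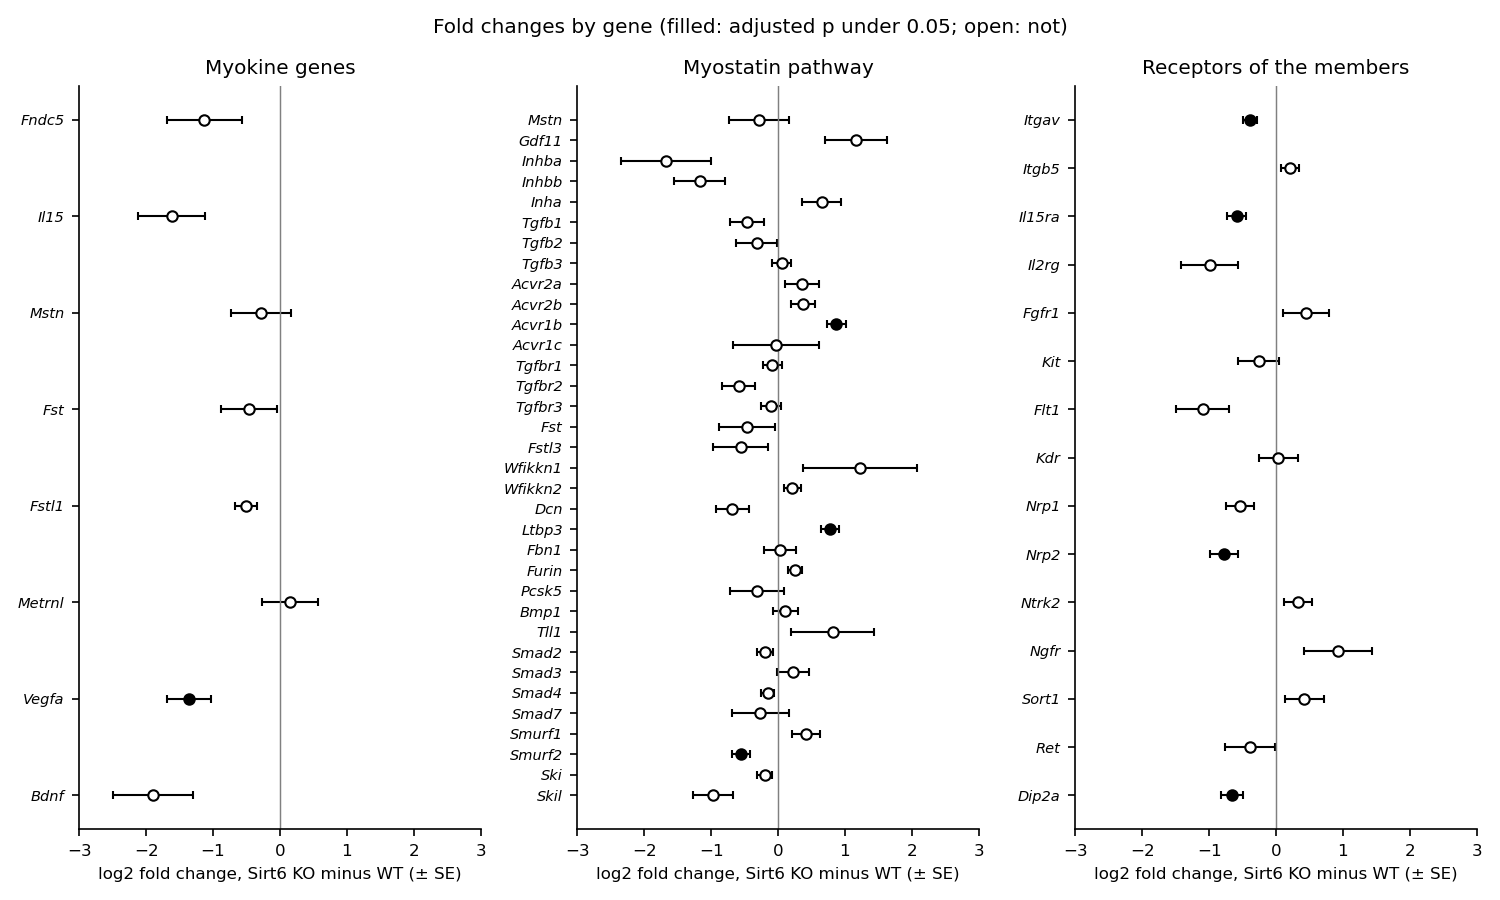
Log2 fold change, Sirt6 KO minus WT, with its SE (x axis) for each tested myokine gene, gene of the myostatin pathway and receptor of the myokines (y axis), with filled points at an adjusted p under 0.05 in edgeR. Among the myokine genes only Vegfa is filled, at -1.36. In the pathway Acvr1b, a myostatin receptor gene, and Ltbp3 are filled to the right of 0 and Smurf2 to the left. In the separate panel of receptors, which leaves out those of myostatin, the 4 filled points all lie to the left.

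Gdf15 and Fgf21 are hormones that stressed tissues release, and both were at or near the detection limit. Fgf21 (NCBI gene 56636; chromosome 7, 45613890 to 45615490) had 0 counts in all 6 libraries, which allows a level of up to 0.0495 to 0.0636 CPM, the worth of 3 counts in the deepest and the shallowest library after normalization; this limit covers counting error only. Gdf15 (NCBI gene 23886; chromosome 8, 70629393 to 70632470) had 7, 24 and 0 counts in WT and 0, 2 and 4 counts in Sirt6 KO. Most of its reads came from WT 2, both groups included a library at 0, and it did not pass the filter on low counts. Tested without the filter, Gdf15 had a log2 fold change of -2.53 with an SE of 1.55 (adjusted p = 0.324 in edgeR), and no difference was detectable with these counts.

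Vegfa (NCBI gene 22339), on chromosome 17 from 46016993 to 46032377, encodes the vascular endothelial growth factor by which muscle fibers maintain and extend their capillaries. Its level was 462, 562 and 283 CPM in the WT libraries and 108, 219 and 183 CPM in the libraries labelled Sirt6 KO. All 3 Sirt6 KO libraries lay below WT 3, the lowest WT library, and this held in TPM too. Vegfa in Sirt6 KO was 38.9% of its WT level (log2 fold change -1.36, SE 0.33, adjusted p = 0.0340 in edgeR). An exact permutation test of 3 libraries against 3, two-sided, allows no p under 0.1, and Vegfa reached 0.1. The sign was negative in every fit, with log2 fold changes from -1.59 to -1.10, but with 1 library left out the call was kept only without WT 3 (adjusted p = 0.0114 in edgeR) and lost in the other 5 fits (adjusted p from 0.0552 to 0.112). Of 7 endothelial markers none was called, and they summed to between 152 and 280 CPM in WT and between 184 and 192 CPM in Sirt6 KO, with none at 0. Of 6 smooth muscle and pericyte markers, which summed to between 222 and 507 CPM in WT and between 194 and 235 CPM in Sirt6 KO with none at 0, the pericyte gene Rgs5 was called lower (log2 fold change -1.11, SE 0.30, adjusted p = 0.0481 in edgeR). That call was lost with the GC trend removed (-0.82, adjusted p = 0.129) and in 5 of the 6 fits that left out a library. Pdgfrb, also a pericyte gene, had a log2 fold change of 0.34 (adjusted p = 0.182 in edgeR), with every Sirt6 KO library above every WT library. Their part in the difference in Vegfa was not tested. The stretch before the upstream RefSeq start of Vegfa is shown because Vegfa was the member called; none of the 6 searched motifs was found in it, so that it has no capitals.

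Vegfa, GRCm38.p6, chr17:46032378-46032627, minus strand: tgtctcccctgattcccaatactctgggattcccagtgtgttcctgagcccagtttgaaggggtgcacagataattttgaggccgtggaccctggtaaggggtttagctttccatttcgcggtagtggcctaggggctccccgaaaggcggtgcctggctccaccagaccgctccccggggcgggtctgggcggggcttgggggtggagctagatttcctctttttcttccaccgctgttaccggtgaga

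Of the 4 Vegfa receptor genes, Nrp2 was called lower and none was called higher. Flt1 and Kdr, which encode the signalling receptors of endothelial cells, had log2 fold changes of -1.10 (SE 0.39, adjusted p = 0.0956) and 0.04 (SE 0.29, adjusted p = 0.942) in edgeR. Flt1 was at 62.0, 85.5 and 26.6 CPM in WT and at 20.4, 33.5 and 27.4 CPM in Sirt6 KO, so that WT 3 lay among the Sirt6 KO libraries. The coreceptor gene Nrp1 had -0.53 (SE 0.21, adjusted p = 0.119 in edgeR), and Nrp2 was at 12.8, 12.7 and 7.73 CPM in WT and at 6.85, 6.42 and 6.08 CPM in Sirt6 KO (log2 fold change -0.78, SE 0.21, adjusted p = 0.0463 in edgeR).

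Fndc5 (NCBI gene 384061), on chromosome 4 from 129136870 to 129144593, encodes the membrane protein from which irisin is cleaved, and it is a known target of the coactivator PGC-1α. Its level was 92.7, 110 and 31.4 CPM in WT and 23.1, 62.9 and 21.0 CPM in Sirt6 KO. The 3 highest values were in WT 1, WT 2 and Sirt6 KO 2, the libraries rich in slow fiber markers, and the groups overlapped. Over all 6 libraries the log2 fold change was -1.13 (SE 0.56, adjusted p = 0.191 in edgeR). Within the libraries with Hbb-bt counts the mean was 101 CPM in WT and 62.9 CPM in Sirt6 KO, a log2 difference of -0.68. Within those without, it was 31.4 CPM in WT and 22.1 CPM in Sirt6 KO, a log2 difference of -0.51. With this split as a covariate, a fit chosen after the data were seen, Fndc5 was called lower, by a smaller log2 fold change of -0.60 (SE 0.11, adjusted p = 0.0169 in edgeR). The irisin receptor subunit genes Itgav and Itgb5 had log2 fold changes of -0.39 (SE 0.10, adjusted p = 0.0451, called lower) and 0.20 (SE 0.14, adjusted p = 0.319) in edgeR.

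Il15 (NCBI gene 16168), on chromosome 8 from 82331624 to 82403252, encodes interleukin-15, a cytokine that sustains lymphocytes and is made in muscle. It was at 8.48, 9.04 and 3.63 CPM in WT and at 1.32, 3.98 and 1.58 CPM in Sirt6 KO. Sirt6 KO 2 lay just above WT 3, which was the one point of overlap. The level in Sirt6 KO was 32.6% of that in WT (log2 fold change -1.62, SE 0.50, unadjusted p = 0.0138, adjusted p = 0.0675 in edgeR). Sirt6 KO was lower on each side of the Hbb-bt split, with log2 differences of -1.14 among the libraries with Hbb-bt counts and -1.33 among those without, and with the split as a covariate Il15 was called lower (log2 fold change -1.23, SE 0.17, adjusted p = 0.00941 in edgeR). It was also called without WT 3, without Sirt6 KO 2, by DESeq2 and with the replicate number as a block. With the split, these were the only 5 of 16 other settings that called Il15. It was not called in the other fits that left out a library (adjusted p up to 0.202 in edgeR). Nor was it called with the GC trend removed (adjusted p = 0.0826 in edgeR) or by limma with a pseudocount of 1 or 0.1 (adjusted p = 0.0506 and 0.0603). Il15ra, which encodes the receptor chain that presents the cytokine, was called lower too: 17.0, 18.9 and 16.4 CPM in WT and 10.2, 11 and 13.7 CPM in Sirt6 KO, without overlap (log2 fold change -0.59, SE 0.14, adjusted p = 0.0355 in edgeR). The other 2 chains are lymphocyte genes; Il2rg had -0.99 (SE 0.43, adjusted p = 0.144 in edgeR) and Il2rb did not pass the filter on low counts.

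**Figure D3:**
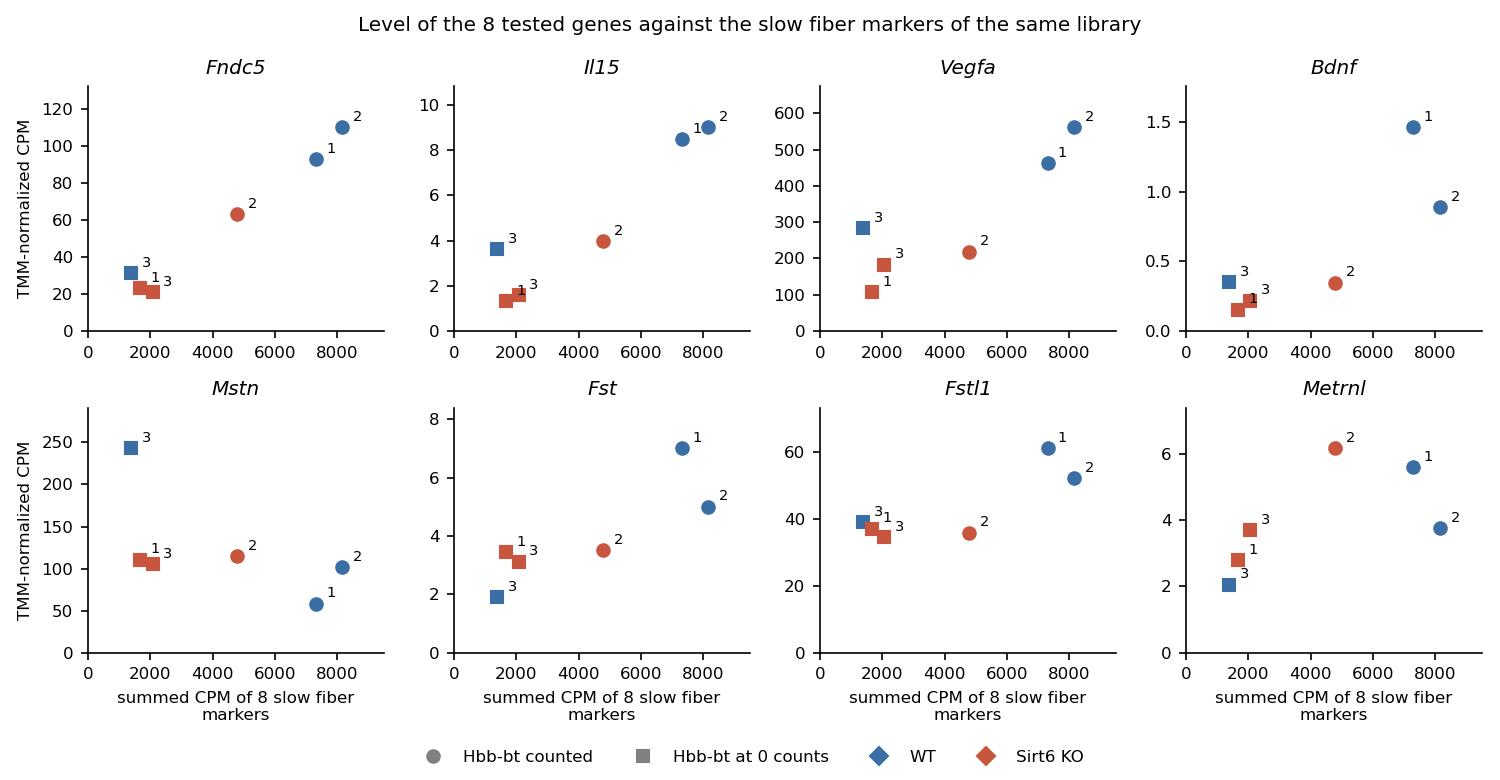
Level of the 8 tested genes in TMM-normalized CPM (y axis, from 0) against the summed CPM of 8 slow fiber markers in the same library (x axis); circles had Hbb-bt counts, squares had none, blue is WT and red is Sirt6 KO, with the replicate number beside each point. Fndc5 is lowest in the 3 squares and highest in the 3 circles, whereas Mstn has its highest value of 243 CPM in the square WT 3.

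Bdnf (NCBI gene 12064), on chromosome 2 from 109674700 to 109727043, encodes a neurotrophin best known from neurons, where CREB drives several of its promoters. It was a low gene here, with 73, 42 and 20 counts in WT and 9, 21 and 12 counts in Sirt6 KO. In CPM these were 1.46, 0.891 and 0.349 in WT and 0.154, 0.346 and 0.218 in Sirt6 KO. WT 3 and Sirt6 KO 2 were almost level, and in deposited TPM the order of these libraries was turned and the groups overlapped. The log2 fold change was -1.90 (SE 0.60, unadjusted p = 0.0147, adjusted p = 0.0699 in edgeR), the lowest of the 8 tested members, and it was not called. It was called without WT 3 (log2 fold change -2.28, adjusted p = 0.0156 in edgeR). The Bdnf receptor genes Ntrk2, Ngfr and Sort1 had log2 fold changes of 0.33, 0.93 and 0.42, with adjusted p-values of 0.298, 0.232 and 0.336 in edgeR.

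RefSeq gives 7 start windows for Bdnf, and the counts were per gene, so that reads could not be assigned to a start. The third window is shown because it holds a partial cAMP response element near its start: the capitals mark CGTCA, the reverse complement of TGACG, from 35 bases before the start, overlapping CACGT, the reverse complement of the hypoxia response core.

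Bdnf, GRCm38.p6, chr2:109692186-109692435, plus strand: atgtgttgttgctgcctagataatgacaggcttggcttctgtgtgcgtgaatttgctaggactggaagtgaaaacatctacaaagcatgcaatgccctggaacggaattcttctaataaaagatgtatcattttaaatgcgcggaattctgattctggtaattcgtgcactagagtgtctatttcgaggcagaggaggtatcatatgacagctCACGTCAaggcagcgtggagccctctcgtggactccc

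Such motifs were common among promoters in general. The search took the 250 bases before each RefSeq start, on both strands, for 32851 windows of 27025 genes, and windows were found for 8 of the 10 members. These 8 members had 16 windows, 7 of them for Bdnf. The shares below are of windows, whereas a member is counted if any of its windows holds the motif. The 2 measures are therefore not alike, and a member with more windows is counted more easily. TGACG was in 17.8% of all windows and in at least 1 window of 4 members, Mstn, Fgf21, Vegfa and Bdnf; in Vegfa it was in the window of a start inside the gene. The complete palindromic cAMP response element, TGACGTCA, which contains TGACG, was in 1.55% of all windows and in 0 members. ACGTG, the hypoxia response core, was in 16.6% of all windows and in 5 members. The E-box CACGTG, which contains ACGTG, was in 6.02% of windows and in 2 members, Fgf21 and Gdf15. The ATF4 site TGATGNAA was in 3.45% of windows and in 1 member, Fgf21, and the FoxO site GTAAACA was in 3.17% of windows and in 0 members. A match is a description of the letters only.

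Metrnl (NCBI gene 210029), on chromosome 11 from 121702427 to 121717389, encodes meteorin-like, a factor of muscle and fat that is raised by exercise and cold. Its level was 5.61, 3.75 and 2.06 CPM in WT and 2.79, 6.17 and 3.70 CPM in Sirt6 KO. The groups overlapped fully, with the lowest value in WT 3 and the highest in Sirt6 KO 2 (log2 fold change 0.15, SE 0.42, adjusted p = 0.824 in edgeR). The same libraries were the lowest and the highest for 5 adipocyte markers, which summed to between 4.45 and 52.5 CPM in WT and between 14.5 and 118 CPM in Sirt6 KO; none of them was called, Lep was at 0 in some libraries, and their part was not tested. Kit, which encodes a receptor of meteorin-like, had a log2 fold change of -0.26 (SE 0.31, adjusted p = 0.582 in edgeR).

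A separate list held 18 receptor genes, without the myostatin receptors given above, of which Acvr1b was called higher. In this list 15 genes were tested, 4 were called lower and 0 were called higher, beside 8.39% and 7.85% of all tested genes. The median log2 fold change of the list was -0.39, beside -0.02 over all tested genes. Besides Il15ra, Nrp2 and Itgav, the fourth was Dip2a, which encodes a receptor of the Fstl1 protein, at 8.68, 9.40 and 7.21 CPM in WT and 6.02, 4.95 and 5.05 CPM in Sirt6 KO (log2 fold change -0.66, SE 0.16, adjusted p = 0.0379 in edgeR). Each of these 4 calls was kept in only 1 of the 6 fits that left out a library. With the GC trend removed, Dip2a kept its call (log2 fold change -0.78, adjusted p = 0.0407 in edgeR). Il15ra (-0.53, adjusted p = 0.0639) and Nrp2 (-0.85, adjusted p = 0.0544) lost theirs at similar log2 fold changes, and Itgav lost its call at a smaller one (-0.18, adjusted p = 0.289). With the Hbb-bt split as a covariate, Dip2a (adjusted p = 0.0522) and Nrp2 (adjusted p = 0.0658) lost their calls in edgeR, while Il15ra and Itgav kept theirs. With the replicate number as a block, Dip2a (adjusted p = 0.0507), Il15ra and Itgav (both 0.0536) lost theirs in edgeR, while Nrp2 kept its call. Of the receptors of Fgf21, Fgfr1 had a log2 fold change of 0.44 (SE 0.35, adjusted p = 0.390 in edgeR) and Klb did not pass the filter, and of those of Gdf15, Ret had -0.39 (SE 0.37, adjusted p = 0.484) and Gfral had no counts.

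Of 13 genes that encode known regulators of the members, 4 were called lower and 1 was called higher, beside 8.39% and 7.85% of all tested genes. Ppargc1a, which encodes PGC-1α, a regulator of Fndc5 and Vegfa, was at 764, 1703 and 515 CPM in WT and at 45.6, 169.7 and 92.2 CPM in Sirt6 KO (log2 fold change -3.28, SE 0.61, adjusted p = 0.0186 in edgeR). Creb1, Atf4 and Foxo1 were called lower, with log2 fold changes of -0.96, -0.64 and -1.51, and Trp53 was called higher, with 0.83 (adjusted p = 0.0144, 0.0316, 0.0358 and 0.0257 in edgeR). With the GC trend removed the calls of Creb1 (-0.63, adjusted p = 0.0530), Foxo1 (-1.50, adjusted p = 0.0545) and Trp53 (0.70, adjusted p = 0.0578) were lost. Foxo1 also lost its call with the Hbb-bt split (-1.33, adjusted p = 0.0616), and with a library left out Creb1 was called in 3 of 6 fits, Ppargc1a in 2, and Atf4, Foxo1 and Trp53 in 1. The hypoxia factor genes Hif1a and Epas1, whose products act on Vegfa, had -0.42 (adjusted p = 0.1504) and -0.41 (adjusted p = 0.299), and the fatty acid receptor gene Ppara, a regulator of Fgf21, had -2.48 (SE 0.78, adjusted p = 0.0680). The part of these genes in the members' levels was not tested.

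The genes whose pattern over the 6 libraries was most like that of Vegfa were Arc, Mn1 and Serpinb8. Likeness was the root mean square difference of log2 CPM after each gene's mean was taken off, over 6 libraries and 13800 other genes, and was 0.15, 0.16 and 0.17 for these genes, beside a spread of 0.80 in Vegfa itself. Mn1, for example, was at 59.4, 89.0 and 32.9 CPM in WT and at 13.1, 25.1 and 21.4 CPM in Sirt6 KO. For Mstn, with a spread of 0.60, genes among the nearest were Odf3l2 (0.20) and Mctp1 (0.25), both with their highest value in WT 3. Odf3l2 was at 16.8, 28.3 and 55.1 CPM in WT and at 28.0, 22.0 and 28.4 CPM in Sirt6 KO. The likeness is a description over libraries that also differ in slow fiber markers.

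On each side of the Hbb-bt split, in means of 1 or 2 libraries and without a test, 5 of the 8 tested members were lower in Sirt6 KO on both sides, 1 was higher on both and 2 changed sign. Vegfa had log2 differences of -1.22 with and -1.01 without Hbb-bt counts, Bdnf -1.72 and -0.93, and Fstl1 -0.65 and -0.13, like Il15 and Fndc5 lower on both sides. Metrnl had 0.43 and 0.64. Mstn was higher in Sirt6 KO among the libraries with Hbb-bt counts (log2 difference 0.58) and lower among those without (-1.17), and Fst the reverse (-0.75 and 0.79). With the split as a covariate 3 members, Fndc5, Il15 and Vegfa, were called lower, where the fit without it called 1; over all genes the lower calls went from 1158 to 1322 and the higher from 1084 to 1182.

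**Figure D4:**
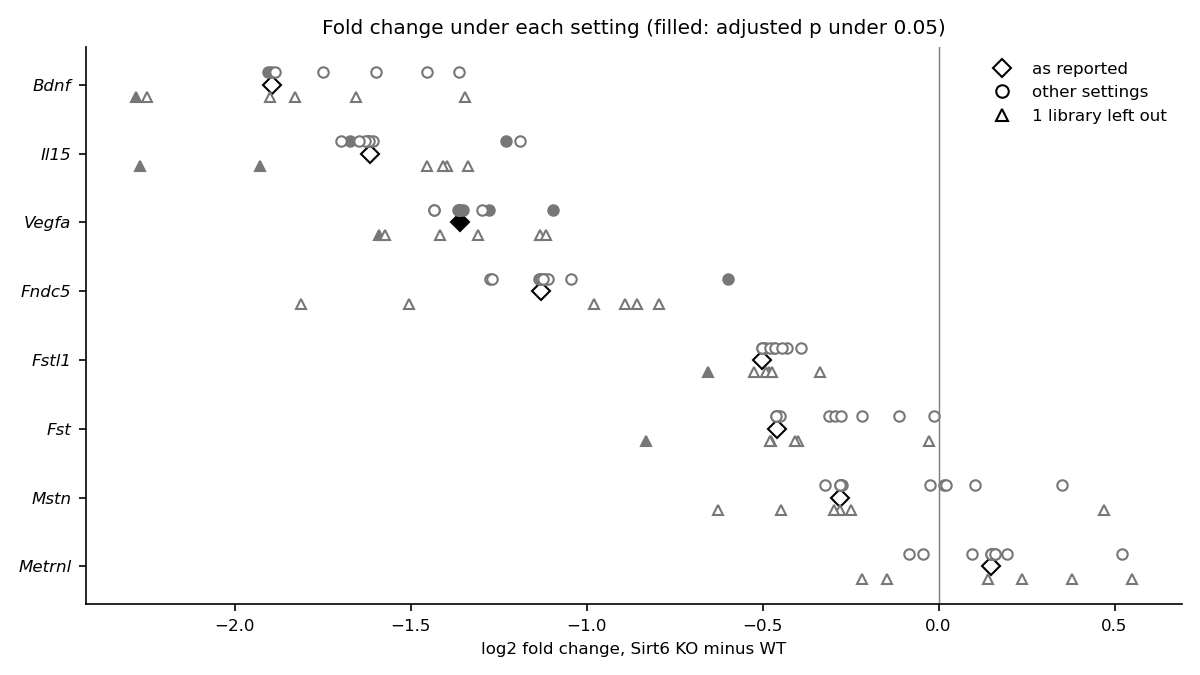
Log2 fold change, Sirt6 KO minus WT (x axis) of the 8 tested members (y axis) as reported (diamonds), under other settings (circles) and with 1 library left out (triangles), filled at an adjusted p under 0.05. Bdnf, Il15, Vegfa, Fndc5, Fstl1 and Fst stay to the left of 0 throughout, Mstn spans from -0.63 to 0.47 and Metrnl from -0.22 to 0.55.

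The satellite cell markers were mixed. Of 6 such markers, 3 were called higher, beside 7.85% of all tested genes. These were Pax7, Myf5 and Cdh15 (log2 fold changes 1.28, 1.33 and 0.97, adjusted p = 0.0299, 0.0225 and 0.0243 in edgeR). Calcr, Chrdl2 and Vcam1 had log2 fold changes of -0.63, -0.76 and -0.26 and were not called (adjusted p = 0.256, 0.224 and 0.371). With a library left out, Pax7 was called in 1 of 6 fits and Myf5 and Cdh15 in 2 each. With the GC trend removed, Pax7 (adjusted p = 0.0631) and Cdh15 (adjusted p = 0.0719) lost their calls in edgeR. Pax7 also lost its call with the replicate block (adjusted p = 0.0557 in edgeR). The list, most of whose level was Cdh15, summed to between 23.5 and 28.9 CPM in WT and between 36.4 and 48.9 CPM in Sirt6 KO. None of the 8 slow fiber markers was called, with a median log2 fold change of -1.11. None of 7 macrophage markers (27.6 to 82.2 CPM in WT and 33.2 to 44.5 CPM in Sirt6 KO, Lyz2 at 0 in WT 3) and none of 5 erythroid markers (46.6 to 297 CPM in WT and 80.2 to 181 CPM in Sirt6 KO) was called by edgeR. Their part in the levels of the myokine genes was not tested.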

How the data were processed

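RNA-seq of gastrocnemius muscle from 3 WT and 3 Sirt6 KO samples, grouped by the sample labels, was analysed. The authors deposited, for each gene and library, a whole-number read count with no normalization, an FPKM value (per gene length and library size) and a TPM value (a fixed sum per library). The submitters' processing notes name mm10, HISAT2 2.1.0 and StringTie 2.1.3b, and the reporting summary names STAR. The labels name a stranded library kit and the methods another kit. The members and gene lists were chosen with earlier results of these data known. All 10 members, Sirt6, genes of the myostatin lists and, from each other list, up to 6 genes with an adjusted p under 0.05 were to be named; further receptors, regulators and secreted factors, given because they belong to a member's pathway, were chosen after their values were seen.

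Tests on the counts used edgeR 4.0.16 in R 4.3.3 (filterByExpr, TMM, quasi-likelihood, 2 groups, adjustment over 13801 genes); the common biological coefficient of variation was 24.1%. SEs were derived from the F statistic. On simulated counts of 13643 genes for Sirt6 KO against WT, with 200 changed by 2 on the log2 scale, edgeR recovered 100% with 5.66% false calls. The simulation gave every gene the same biological coefficient of variation and held no Hbb-bt split and no GC trend. It therefore checks the fit only and does not show how well smaller changes in these libraries are recovered. Alternatives were DESeq2 1.42.0 and its size factors, other filters, limma 3.58.1 on quantile-normalized log2 FPKM with a pseudocount of 1 or 0.1, a replicate block, removal of a GC trend (span 0.3, GC content known for 97.2% of genes), each library left out, and, added after the data were seen, the Hbb-bt split. No 2 libraries were identical. Coordinates and promoter sequences are from RefSeq on GRCm38.p6, of which mm10 is the same build, with 99.7% of the genes matched by NCBI identifier. Protein sequences were not used here. The results of 2 genes are not reported here.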

Additional observations from a re-analysis of the deposited data

How the results depend on the processing

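Of the fold changes of the 8 tested members under other settings, 98 kept direction and side of the threshold, 11 became called, 7 were no longer called and 9 reversed. The count of members called lower, 1 as reported, was 4 with DESeq2, 0 with limma on log2(FPKM + 0.1), 0 with the GC trend removed together with the replicate block, 3 with the Hbb-bt split, and 0 to 5 with 1 library left out, 5 of them without WT 3. Members whose groups did not overlap were 3 as reported, beside 40.0% of all tested genes. They were 1 in TPM and 3 to 7 with 1 library left out. The share over all tested genes was not counted for TPM or with a library left out. With fewer libraries, groups separate more easily by chance, so the counts with a library left out are no result about the members. Over all genes, 1158 lower and 1084 higher calls became 490 and 490 with the GC trend removed and 322 and 247 with the block added to it, and DESeq2 called 1737 lower and 1671 higher. With 1 library left out, between 2 and 2219 genes were called lower and between 6 and 2363 higher. The fewest came without Sirt6 KO 1 and the most without WT 3. The cause was not tested.

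Mstn reversed to 0.015 and 0.021 with limma at the pseudocounts 1 and 0.1, to 0.10 with the GC trend removed, to 0.35 with the block added, and ranged from -0.63 to 0.47 with 1 library left out (0.47 without WT 3). Metrnl reversed to -0.084 and -0.043 in the GC fits, and ranged from -0.22 to 0.55 with 1 library left out (-0.15 without WT 3, -0.22 without Sirt6 KO 2). Vegfa was called in 8 of 10 other settings and in 1 of 6 fits with a library left out, with adjusted p-values from 0.000190 to 0.112.

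Deviations of same-numbered libraries correlated at -0.09, 0.22 and 0.13 over genes, and those of differently numbered ones at -0.30 to 0.19. These values do not settle whether the replicate numbers pair the samples, and the main fit took them as unpaired. The submitters' own names number the libraries differently, and no same-numbered WT and Sirt6 KO libraries share a number there. The labels thus give no basis for a pairing, and calls with the replicate block are a check of the fit only. With the replicate block, 2 members, Il15 (adjusted p = 0.0407) and Vegfa (adjusted p = 0.0416), were called lower, and over all genes 1018 genes were called lower and 904 higher. Fgf21 had no counts, Gdf15 had 0 to 24 and Bdnf 9 to 73 counts per library.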

Other observations

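Among 28 other genes of secreted muscle factors, 21 were tested, 2 were called higher and 2 lower, beside 7.85% and 8.39% of all tested genes, with a median log2 fold change of -0.07. Angptl4, which encodes an inhibitor of lipoprotein lipase, was at 7.94, 10.1 and 10.4 CPM in WT and at 46.6, 35.2 and 47.1 CPM in Sirt6 KO (log2 fold change 2.18, SE 0.17, adjusted p = 0.00873 in edgeR). Its call was kept in all 6 fits that left out a library. Ostn, which encodes musclin, a peptide of muscle that binds the natriuretic clearance receptor, was at 16.1, 18.9 and 23.7 CPM in WT and at 50.0, 45.1 and 44.6 CPM in Sirt6 KO (log2 fold change 1.25, SE 0.15, adjusted p = 0.0128 in edgeR), and was called in 4 of those 6 fits. In both genes every Sirt6 KO library lay above every WT library.

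Fam132b, which encodes the hormone erythroferrone, was at 8.20, 5.60 and 3.02 CPM in WT and at 2.53, 2.18 and 1.38 CPM in Sirt6 KO (log2 fold change -1.46, SE 0.39, adjusted p = 0.0455 in edgeR), and was called in 1 of those 6 fits. Its call was also lost in edgeR with the GC trend removed (adjusted p = 0.0632) and with the Hbb-bt split as a covariate (adjusted p = 0.0704). Gdf5, a ligand of the TGF-β superfamily, was at 0.200, 0.361 and 0.227 CPM in WT and had 0 counts in all 3 Sirt6 KO libraries. It passed the filter on low counts only through WT, so its call is no support and no fold is given; the call was also lost with the replicate block (adjusted p = 0.0612 in edgeR) and kept in 2 of the 6 fits that left out a library. Of the Vegfa relatives, Vegfb, Vegfc and Vegfd had log2 fold changes of 0.07, -0.07 and -0.53 (adjusted p = 0.798, 0.891 and 0.0924 in edgeR), beside the -1.36 of Vegfa.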
